A study of Xenopus tropicalis with 2 samples.

Results

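The outermost 5 Mb of chromosomes 1 to 8 of the frog Xenopus tropicalis held 10525 of the 124349 peaks in a genome occupancy profile of tadpole tail. Peaks were taken as subtelomeric when they started at most 5 Mb from the lowest or the highest peak start of their chromosome. The low-coordinate end of chromosome 7 was left out up to base 12000000, so there were 15 ends, 7 at low and 8 at high coordinates. The comparison set was the 70984 remaining peaks of the same 8 chromosomes, called interior here, without the 1295 peaks at the start of chromosome 7. The choice used position alone and no read count. The position of the telomere itself and the extent of unassembled sequence are not known from the table, so distances are measured from the outermost peak.

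Both libraries were made from genomic DNA of wild-type tail tissue labelled 0 hours post amputation, from tadpoles whose tail tip was cut at stage 41 of the Nieuwkoop and Faber series. The first library came from dissociated cells used without sorting, the second from cells that had gone through a fluorescence-activated cell sorter. The labels name neither the gated fluorescent population nor the exact occupancy assay. Reads in peaks numbered 3176954 without and 3111092 with sorting. With 1 library in each group there was no replicate and no test between groups, and every interval below is a 95% interval that covers counting error only.

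Subtelomeres are the stretches that lie just inside the telomeric repeats at the tips of linear chromosomes. In vertebrates they tend to be rich in repeats and segmental copies, and in Xenopus tropicalis the outer parts of the large chromosomes recombine more often and are richer in genes and in G and C bases than the parts near the centromeres. Peaks of occupancy profiles often mark promoters and enhancers, the DNA stretches that control when genes are read. No base composition, gene or repeat was assigned to the peaks here, since the build of the table is not named in the sources used here.

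Peaks were crowded at the ends. The 75 Mb of end sequence held 140.3 peaks per Mb against 66.6 per Mb in the 1065 Mb of interior, a 2.11-fold difference. The ends made up 6.58% of this length, held 12.9% of its peaks and took 17.8% of its peak reads. Every one of the 15 ends was denser than the interior of its own chromosome, by 1.62-fold to 2.65-fold. The ranges did not overlap, since ends held 106.4 to 170.6 peaks per Mb and interiors 61.2 to 69.8. Interiors ran in a narrower range than ends. However, each interior value averages over a far longer stretch than the 5 Mb of an end. The widths of these ranges therefore cannot be compared. In windows of 1 Mb the counts overlapped, with 56 to 219 peaks per end window and 19 to 206 per interior window. The medians were 139 and 62, and the 5th to 95th percentiles were 90.5 to 200.3 and 43 to 107.0.

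The densest end was the low-coordinate end of chromosome 5, with 853 peaks. It was followed by the high-coordinate ends of chromosome 8, with 836 peaks, and of chromosome 6, with 832. The sparsest was the high-coordinate end of chromosome 4, with 532 peaks, and then that of chromosome 5, with 547. Chromosome 5 therefore carried both the densest end and the one next to the sparsest. With a single merged peak set there is no replicate of a density, so the order of neighbouring ends has no error of its own.

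End peaks also had more reads. The median end peak had 19 unsorted and 19 sorted reads, and the median interior peak had 13 and 14. Summed over both libraries the medians were 38 and 27 reads, a 1.41-fold difference. The medians of the 15 ends ran from 32 to 45 summed reads and those of the 8 interiors from 25 to 27, again without overlap. The end with the highest median was the low-coordinate end of chromosome 8, and the one with the lowest was the high-coordinate end of chromosome 7.

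**Figure D1:**
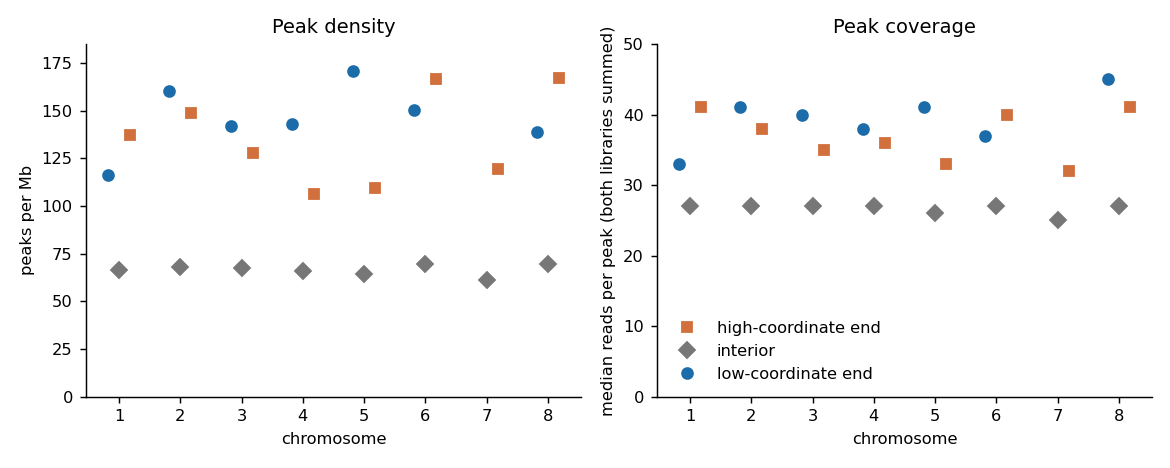
Peaks per Mb (left) and median reads per peak summed over both libraries (right) for each end and each interior of chromosomes 1 to 8; each point is 1 end or interior. All 15 ends lie above every interior in both plots, with 106.4 to 170.6 against 61.2 to 69.8 peaks per Mb.

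More of the end peaks than of the interior peaks were strongly covered. Of the end peaks, 961 (9.13%) had at least 100 summed reads, against 2361 (3.33%) of the interior peaks, and the share was higher than in the own interior at 15 of 15 ends. It reached 16.3% at the low-coordinate end of chromosome 8 and was lowest, at 4.52%, at the high-coordinate end of chromosome 7. At 400 or more reads the shares were 0.694% of end and 0.270% of interior peaks. At 1000 or more reads the shares were close, at 0.0285% of end peaks (3) and 0.0366% of interior peaks (26), against 0.164% of all peaks of the table (204). Density and coverage together gave the ends 3.20 times as many unsorted reads per Mb as the interior (3901 against 1220) and 2.97 times as many sorted reads (3747 against 1262).

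End peaks lay close together. The median distance between the starts of consecutive peaks was 5180 bp at the ends and 9846 bp in the interior. A further peak started within 2 kb of 50.2% of the end peaks and of 33.3% of the interior peaks. Across the ends this share ran from 37.0% at the high-coordinate end of chromosome 4 to 59.3% at the low-coordinate end of chromosome 8, against 31.9% to 35.7% in the interiors. The median end peak had 15 other peaks within 50 kb and the median interior peak 7. At least 10 such neighbours were found for 85.6% of end and 23.9% of interior peaks. Overlapping peaks, which can share reads, were few at 3.28% and 2.70%, and all peaks were 400 bp wide.

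Density fell steadily with distance from the outermost peak. It was 186.1 peaks per Mb in the first 250 kb, 182.7 in the next 250 kb and 150.7 between 1 and 2 Mb. It was 117.7 between 4 and 5 Mb. The decline went on beyond the ends as defined, to 114.3 between 5 and 7.5 Mb, 84.6 between 10 and 15 Mb and 62.5 between 20 and 30 Mb, where it levelled off. Median coverage fell more slowly, from 42 summed reads in the first 250 kb to 35 between 4 and 5 Mb and 25 beyond 40 Mb. The 5 Mb limit thus cut a gradient and marked no step. The last peak inside the limit at each of the 15 ends had a median of 33 summed reads, and the first peak outside it had a median of 33 as well. The 15 inner peaks of these pairs held 313 unsorted and 326 sorted reads, and the 15 outer ones 438 and 398.

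**Figure D2:**
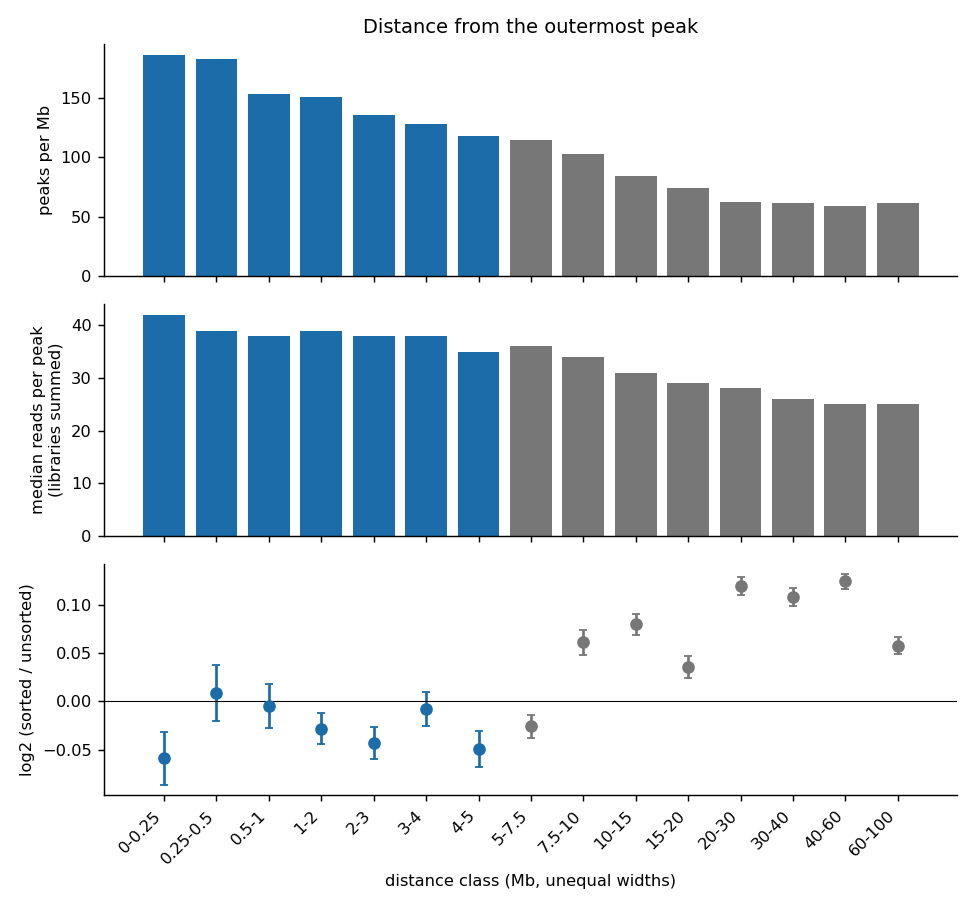
Peak density (top), median summed reads per peak (middle) and pooled log2 ratio of sorted over unsorted reads (bottom) by distance from the outermost peak in Mb, over chromosomes 1 to 8; classes are of unequal width, blue marks the ends, grey the interior, and bars in the bottom plot are 95% counting intervals. Density declines from 186.1 to about 60 peaks per Mb. With library totals set equal, the ratio lies at or below 0 out to 7.5 Mb, apart from 0.0089 between 0.25 and 0.5 Mb. Farther in it lies above 0. The position against 0 depends on the scale.

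Single ends did not all follow the steady fall of the pooled density. Each end was divided into 5 windows of 1 Mb. The outermost held more peaks than the innermost at 15 of 15 ends, and was the densest of the 5 at 12 of them. Between them the number could dip and rise again. From the outermost peak inwards, the windows of the low-coordinate end of chromosome 4 held 161, 114, 135, 158 and 147 peaks. Of the 75 windows, 74 held more peaks than the median interior window of 62, and 63 held more than the 95th percentile of the interior windows (107.0). The end windows ranged from 56 to 219 peaks with a median of 139.

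The low-coordinate end of chromosome 8 held both extremes. Its first and second windows held 218 and 219 peaks, the latter being the densest of all end windows, from base 1000260 to 2000260. The next held 119 and 83, and the innermost 56, the fewest of all, from base 4000260 to 5000260. Of the peaks with at least 100 reads, 66 lay in the second window and 0 in the innermost 2. By comparison the low-coordinate end of chromosome 5 was even, with 184 peaks in the outermost and 159 in the innermost window. The high-coordinate end of chromosome 6 rose first, from 153 to 201 peaks in the second window, and then fell to 143.

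**Figure D3:**
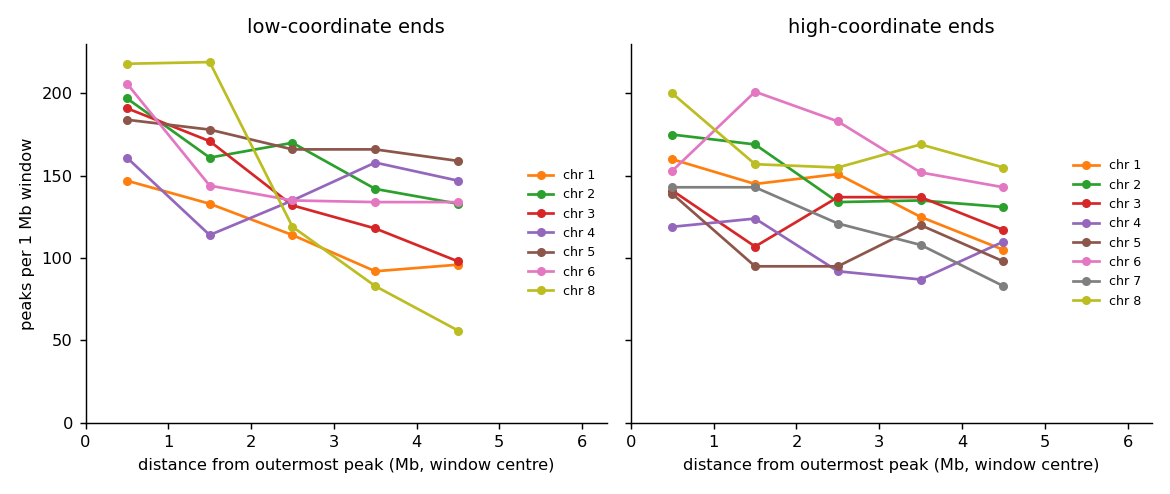
Number of peaks in each of the 5 successive 1 Mb windows, from the outermost peak inwards, for the 7 low-coordinate ends (left) and the 8 high-coordinate ends (right); each line is 1 end. The low-coordinate end of chromosome 8 falls from 218 to 56 peaks, and the outermost window exceeds the innermost at all 15 ends.

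Reads in end peaks made up a smaller share of the sorted library relative to the interior. End peaks took 292579 unsorted and 281040 sorted reads, which is 9.21% (9.18% to 9.24%, Clopper-Pearson) and 9.03% (9.00% to 9.07%) of the libraries. Interior peaks took 1299406 and 1344739 reads, or 40.9% and 43.2%. The pooled log2 ratio, which is the log2 of summed sorted over summed unsorted reads with library totals set equal, was -0.028 (-0.035 to -0.020) at the ends and 0.080 (0.076 to 0.083) in the interior. The difference of ends minus interior was -0.11 (-0.12 to -0.099), so the ends kept 0.928 times the interior's ratio. This difference does not depend on how the libraries are scaled, whereas the position of either value against 0 does. Scaling by the 5000 most covered peaks moves all log2 ratios by 0.16 and puts the ends at 0.13. The difference is small, and without replicates it cannot be set against the spread between preparations.

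The shift was also seen peak by peak. Of the 9642 end peaks with at least 20 summed reads, 4430 (45.9%) had more sorted than unsorted reads, 4693 (48.7%) had fewer and 519 had equal numbers. In the interior 52.9% of 57539 such peaks had more and 40.9% fewer. Over all 105380 such peaks of the table the shares were 49.6% and 44.6%, between those of the ends and the interior. These shares compare raw reads, without scaling to library totals. The mean log2 ratio per peak was 0.018 at the ends and 0.12 in the interior, with standard deviations over peaks of 0.53 and 0.60. The median was 0.030 at the ends, the value that equal raw counts give after scaling, and 0.12 in the interior. By end, the difference of medians from the own interior ran from -0.20 at the low-coordinate end of chromosome 3 to 0 at that of chromosome 5. The shift of about 0.1 is therefore far smaller than the spread of single peaks, most of which have few reads.

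All 15 ends had a lower pooled log2 ratio than the interior of their own chromosome, each with an interval of the difference below 0. The differences ran from -0.041 (-0.072 to -0.010) at the low-coordinate end of chromosome 6 to -0.24 (-0.27 to -0.22) at the low-coordinate end of chromosome 3, with a median of -0.10. Of these, the end of chromosome 3 had 22125 unsorted and 20713 sorted reads while its interior had 146705 and 162716, so the end lay below 0 and the interior at 0.18. That of chromosome 6 had 18572 and 18227 reads, at a log2 ratio of 0.0032, against 0.044 in its interior. That interior holds a peak of 28968 summed reads, and without it the interior stood at 0.10 and the difference at -0.098 (-0.13 to -0.067). Leaving out the most covered peak of each interior put the 15 differences between -0.25 and -0.046, with each interval still below 0. The most covered peaks of the ends stayed in, and the 15 differences were not repeated without them. At the low-coordinate end of chromosome 6 that peak had 403 unsorted and 153 sorted reads, which lowers the ratio of this end. Ends share their 2 libraries, so the 15 values are not 15 independent measurements.

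The lowest pooled ratios were -0.084 (-0.11 to -0.058) at the high-coordinate end of chromosome 8 and -0.077 (-0.10 to -0.049) at that of chromosome 2, whose interiors stood at 0.017 and 0.020. Without its peak of 26671 reads the interior of chromosome 2 stood at 0.057. The 3 ends with an interval above 0 were the high-coordinate ends of chromosomes 3 (0.078), 4 (0.062) and 7 (0.062), whose interiors had the 3 highest ratios, at 0.18, 0.11 and 0.17. Chromosome 3 had its other end at -0.065 (-0.092 to -0.038), so a high interior did not always go with high ends. Of the 15 ends, 7 had an interval below 0 and 5 had one that included 0. These counts against 0 hold for library totals as the scale. The 5000 most covered peaks as the scale add 0.16 to every log2 ratio, which puts all 15 ends above 0.

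**Figure D4:**
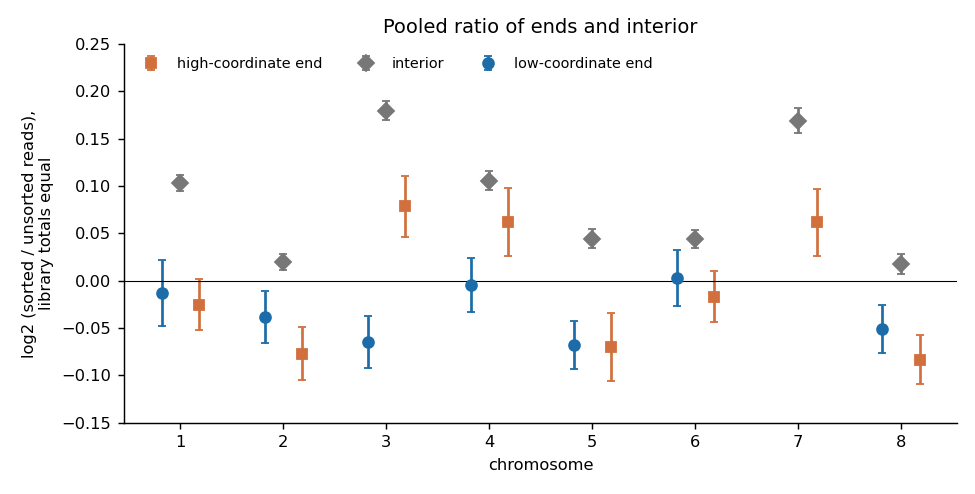
Pooled log2 ratio of sorted over unsorted reads, with library totals set equal, for each end and each interior of chromosomes 1 to 8; bars are 95% counting intervals. Every end drawn lies below the interior of its own chromosome; chromosome 7 has its high-coordinate end alone.

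The near and far ends did not differ in a common direction. Pooled over chromosomes, the low-coordinate ends had a log2 ratio of -0.037 (-0.048 to -0.027) and the high-coordinate ends -0.018 (-0.029 to -0.0077), a difference of -0.019 (-0.034 to -0.0041). Without chromosome 7, which gave a high-coordinate end alone, it was -0.011 (-0.026 to 0.0042). Of the 7 chromosomes with both ends, the low-coordinate end was lower on 2, and on these the interval excluded 0. These were chromosome 3, with a difference of -0.14 (-0.19 to -0.10), and chromosome 4, with -0.067 (-0.11 to -0.021). On the other 5 chromosomes the difference was between 0.0022 and 0.038, and each interval included 0. Means per peak with at least 20 reads gave another order. Their difference was -0.10 on chromosome 3 but -0.0021 on chromosome 4, and 0.11 on chromosome 5, where the pooled difference was 0.0022. It was -0.056 on chromosome 1, -0.024 on chromosome 2, -0.027 on chromosome 6 and 0.079 on chromosome 8.

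In density the low-coordinate end was the denser on 4 and the sparser on 3 of these 7 chromosomes. The largest contrast was on chromosome 5, with 853 peaks at the low-coordinate and 547 at the high-coordinate end (1.56-fold), followed by chromosome 4 with 715 and 532 (1.34-fold). Chromosome 8 went the other way, with 695 and 836 peaks, and so did chromosome 1, with 582 and 686. Over these 7 chromosomes the low-coordinate ends were 1.06-fold denser. The coverage of the denser end was not always higher: on chromosome 8 the sparser low-coordinate end had the higher median of 45 against 41 summed reads.

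Coverage was compared because peaks with 200 or more reads had lower ratios than weaker ones, at the ends and in the interior, and made up a larger share at the ends. In classes of like coverage the ends lay below the interior in 7 of 8 classes, each with an interval below 0. For peaks with 30 to 49 summed reads, the class with the most end peaks, the pooled log2 ratio was 0.037 (0.022 to 0.053) over 3548 end peaks and 0.15 over 19587 interior peaks, a difference of -0.12 (-0.13 to -0.10). The difference was -0.071 (-0.086 to -0.055) for 50 to 99 reads and -0.078 (-0.10 to -0.056) for 100 to 199 reads. It was larger for strong peaks, at -0.17 (-0.20 to -0.14) for 200 to 399 reads and -0.23 (-0.27 to -0.20) for 400 to 999 reads. The 70 end peaks of that last class had a pooled log2 ratio of -0.32 (-0.35 to -0.29) and the 166 interior peaks -0.087. The exception was the class with 1000 or more reads, where the 3 end peaks had -0.048 (-0.13 to 0.039) and the 26 interior peaks -0.37. The 2 most covered interior peaks, on chromosomes 6 and 2, held 54.0% of the interior reads of this class, and without them the remaining 24 had -0.13 (-0.15 to -0.099). When the interior peaks were weighted to the coverage classes of the end peaks, the difference over all classes was -0.094. What part coverage has in the difference was not tested.

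Classes of local crowding were compared in the same way. Among peaks with 5 to 9 others within 50 kb, the pooled log2 ratio was 0.025 over 1372 end peaks and 0.10 over 38035 interior peaks, a difference of -0.078 (-0.10 to -0.055). Among peaks with 15 to 19 others it was -0.043 over 3511 end peaks and -0.018 over 3349 interior peaks, a difference of -0.026 (-0.043 to -0.0078). Among those with 20 to 29 others the difference was -0.067 (-0.089 to -0.045), over 1831 and 1521 peaks. Among peaks with 30 or more others the difference was -0.0035 (-0.075 to 0.068), over 83 end and 273 interior peaks. With interior peaks weighted to the crowding of the end peaks, a comparison added after the values were seen, the difference over all classes was -0.044. In the class with the most end peaks, 10 to 14 others, the difference was -0.047 (-0.062 to -0.031), over 3589 end and 11832 interior peaks. With 1 to 4 others it was -0.12 (-0.19 to -0.040). The median per interior peak with at least 20 reads was 0.15 with 1 to 4 others, 0.093 with 10 to 14 and 0.0040 with 30 or more. With no other peak within 50 kb this median was 0.030. The pooled ratio of interior peaks did not fall evenly with crowding. It was 0.065 with no other peak within 50 kb, 0.14 with 1 to 4, 0.023 with 10 to 14, 0.024 with 20 to 29 and 0.046 with 30 or more. Crowding also went with distance. At least 10 others within 50 kb were found for 64.3% of interior peaks at 5 to 10 Mb and for 18.7% of those beyond 10 Mb. What part crowding or distance has in the difference was not tested.

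**Figure D5:**
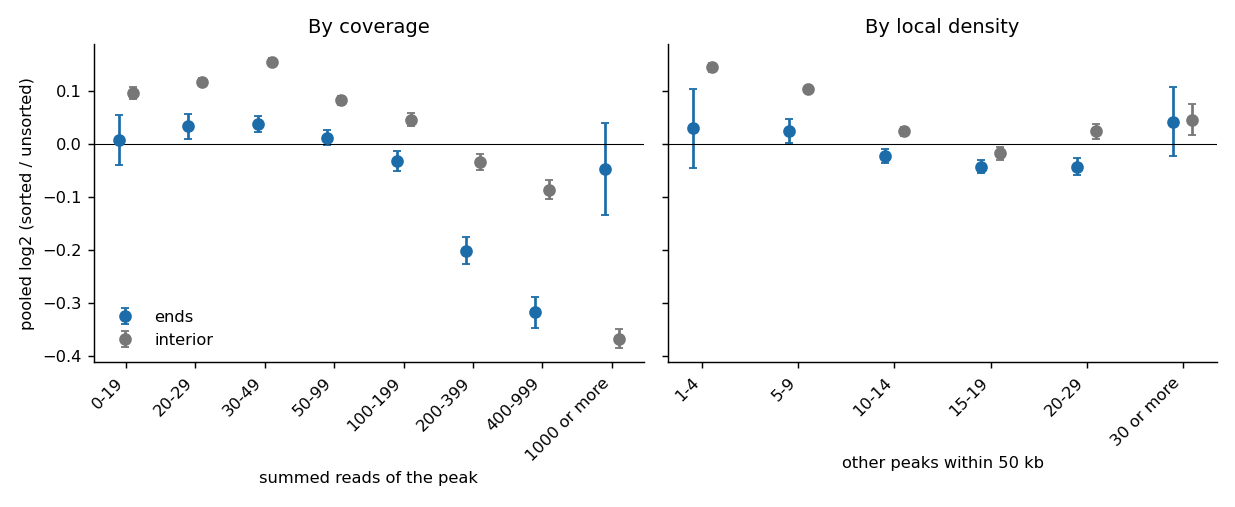
Pooled log2 ratio of sorted over unsorted reads of end peaks (blue) and interior peaks (grey) in classes of summed reads per peak (left) and of the number of other peaks within 50 kb (right); bars are 95% counting intervals. Ends lie below the interior in each coverage class up to 999 reads, most of all at 400 to 999 reads with -0.32 against -0.087, and the gap is narrow at 15 to 19 neighbours (-0.026) and at 30 or more (-0.0035). The class with no neighbour, which held 1 end peak, is not drawn.

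By distance, with library totals as the scale, the pooled ratio moved unevenly around or below 0 within the ends. It was higher, also unevenly, farther in. It was -0.059 (-0.086 to -0.031) in the first 250 kb, then 0.0089 up to 0.5 Mb and -0.0046 up to 1 Mb, where both intervals included 0. It was -0.028 (-0.044 to -0.012) between 1 and 2 Mb, -0.043 (-0.060 to -0.026) between 2 and 3 Mb, -0.0079 (-0.025 to 0.0096) between 3 and 4 Mb and -0.049 (-0.068 to -0.030) between 4 and 5 Mb. It was -0.026 (-0.038 to -0.014) between 5 and 7.5 Mb, 0.061 (0.048 to 0.074) between 7.5 and 10 Mb and 0.080 between 10 and 15 Mb. It dropped to 0.036 between 15 and 20 Mb, reached 0.12 (0.11 to 0.13) between 20 and 30 Mb and was 0.057 beyond 60 Mb. The class of 15 to 20 Mb holds the peak of 26671 summed reads, and the class beyond 60 Mb that of 28968. The means per peak of these classes did not dip, at 0.12 and 0.14. Pooled over 5 to 10 Mb, the interior had 0.013, and the ends lay 0.040 below it, with a difference of -0.040 (-0.052 to -0.029). The medians per peak of these 2 sets were both 0.030, and their means differed by -0.046. The mean per peak moved more evenly than the pooled ratio, from 0.041 between 4 and 5 Mb to 0.054 between 5 and 7.5 Mb, 0.075 between 7.5 and 10 Mb and 0.13 between 20 and 30 Mb.

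Within the ends the ratio varied from window to window. Of the 75 windows of 1 Mb, 25 (33.3%) had an interval below 0 and 17 (22.7%) one above 0. Of 1062 interior windows, 3.77% had an interval below and 47.1% one above 0. End windows hold more reads and so have narrower intervals. These counts hold for library totals as the scale. The 5000 most covered peaks as the scale add 0.16 to every log2 ratio, so fewer end windows would lie below 0 and more above it. The lowest end window lay on chromosome 5 between bases 4022267 and 5022267, where 5983 unsorted and 4974 sorted reads gave -0.24 (-0.29 to -0.18). The highest was the sparsest window, on chromosome 8 between bases 4000260 and 5000260, with 820 and 1019 reads (0.34, 0.21 to 0.48).

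The windows of the low-coordinate end of chromosome 8 thus spanned much of the range within 5 Mb. From the outermost peak inwards their log2 ratios were 0.052, -0.13, -0.13, 0.14 and 0.34. The second of them, with 11249 unsorted and 10052 sorted reads, held the most strongly covered peaks, and the last held none with 100 reads. At the low-coordinate end of chromosome 4 the second window, from base 1002305 to 2002305, stood out at 0.24 (0.16 to 0.32), with 2289 and 2647 reads in 114 peaks. At the high-coordinate end of chromosome 2 the outermost window, from base 169235384 to 170235384, was low at -0.20 (-0.26 to -0.14), with 5018 and 4285 reads.

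Few end peaks differed between libraries when taken alone. The call asked for 20 or more summed reads, at least a 2-fold ratio and an interval without the equal level. Of all examined peaks of the table, 5.19% passed, 3.53% higher and 1.65% lower after sorting. Of the 9642 end peaks with at least 20 reads, 409 (4.24%) passed, 233 (2.42%) higher and 176 (1.83%) lower. The share of higher peaks lay below that background, and the share of lower peaks was near it. In the interior 4.33% were higher and 1.51% lower. The balance of directions at the ends depends on scaling, since higher peaks made up 57.0% of the calls with library totals, 50.2% with DESeq2 size factors and 41.5% with TMM factors. A loess correction for coverage gave 41.3%, and the 5000 most covered peaks as the scale gave 83.7%.

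The share of higher peaks was also smaller at the ends at like coverage. Among peaks with 30 to 49 reads, 3.38% of 3548 end peaks and 5.93% of 19587 interior peaks were higher, and 1.83% and 1.54% were lower. Among those with 20 to 29 reads, 2.64% of end and 3.97% of interior peaks were higher, and 2.68% and 1.70% were lower. From 50 reads upwards, 47 of 3596 end peaks (1.31%) passed as higher and 44 (1.22%) as lower. Over the whole table these shares were 1.44% and 0.976%, 2.42% in both directions. In the interior they were 2.09% and 0.843% of 9252 peaks. From 100 reads upwards, 3 of 961 end peaks (0.312%) passed as higher and 6 (0.624%) as lower, beside 0.393% and 0.436% over the whole table, 0.829% together. Of the 2361 interior peaks with at least 100 reads, 0.720% passed as higher and 0.593% as lower. By end, with library totals as the scale, higher peaks outnumbered lower ones at 11 of 15. They also did so over the whole table, with 3725 higher and 1739 lower among 105380 peaks. Lower peaks were most in excess at the high-coordinate end of chromosome 8, with 8 higher and 24 lower among 781 peaks. The low-coordinate end of chromosome 2 followed, with 9 and 19 among 755. These balances move with the scale. Over all ends there were 176 higher and 248 lower peaks with TMM factors, and 411 and 80 with the 5000 most covered peaks.

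The strongest peak of each end is described next, since these peaks carry the most reads. The most covered end peak of all, at bases 113873002 to 113873401 of chromosome 8, lay 3.78 Mb from the outermost peak. Its 935 unsorted and 938 sorted reads gave a log2 ratio of 0.035 (-0.097 to 0.17), so it was level between libraries. The next, at bases 2235160 to 2235559 of chromosome 3, counted 758 and 534 (-0.47, -0.64 to -0.31). After it came bases 146044424 to 146044823 of chromosome 5, where 510 and 615 were counted (0.30, 0.13 to 0.47). These 3 are the end peaks with 1000 or more reads, and they went in different directions.

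With library totals as the scale, 7 of the strongest peaks of the 15 ends had an interval below 0. Of the rest, 3 had an interval above 0 and 5 one that included 0. Those below 0 included bases 2201471 to 2201870 of chromosome 5, where 541 unsorted and 366 sorted reads lay (-0.53). Bases 168186190 to 168186589 of chromosome 2 held 459 and 309 (-0.54). Bases 4812735 to 4813134 of chromosome 4 held 342 and 230 (-0.54), and the 15 other peaks within 50 kb of it also had a low pooled ratio of -0.36. Beside the peak on chromosome 2 the 13 other peaks stood at 0.016, so there the strong peak was low among level neighbours. Above 0 were bases 191441330 to 191441729 of chromosome 1, where 409 and 463 reads lay (0.21, 0.014 to 0.41), and 116183339 to 116183738 of chromosome 7, where 274 and 325 lay (0.28, 0.040 to 0.51). The 26 other peaks around the latter shared its direction, with a pooled log2 ratio of 0.30.

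A larger share of strong end peaks than of strong interior peaks was low. Of the 251 end peaks with at least 200 reads, 108 (43.0%) had an interval below 0 and 14 (5.58%) one above 0. Of the 704 such interior peaks, 22.6% lay below and 14.6% above. These shares were not computed over all 3237 such peaks of the table. With library totals, the 5000 most covered peaks of the whole table, pooled, lay 0.16 below 0, so a low ratio of strong peaks was not particular to the ends. With the 5000 most covered peaks as the scale, 27.5% of these end peaks lay below and 13.1% above 0, and 14.1% and 26.6% of the interior ones. With library totals, the pooled log2 ratio of the strong end peaks was below 0 at 15 of 15 ends, from -0.037 at the high-coordinate end of chromosome 3 to -0.47 at the high-coordinate end of chromosome 2. The other scale left 9 ends below 0 and put 6 above. At 11 ends the strong peaks lay below those of their own interior, which no scaling changes, and at 7 of these the interval of the difference was below 0. The low-coordinate end of chromosome 4 stood 0.40 lower (difference -0.40, -0.47 to -0.33), with 4233 unsorted and 3085 sorted reads in 23 peaks. That of chromosome 3 also stood lower (-0.39, -0.46 to -0.31), with 4454 and 3521 reads in 17 peaks. The 4 ends with a pooled ratio above that of their interior were the low-coordinate end of chromosome 2 and the high-coordinate end of chromosome 5, where the interval included 0, and both ends of chromosome 8, where it did not. The strong interior peaks of chromosomes 2 (-0.27) and 6 (-0.31) include the single peaks of 26671 and 28968 reads. Leaving these peaks out raised the ratio of the whole interiors to 0.057 and 0.10. The counts of 11, 7 and 4 ends include both peaks and were not repeated without them. At the low-coordinate end of chromosome 2, named above as higher, the median per peak differed from the interior by 0.016 and the mean by -0.16. At the high-coordinate end of chromosome 5 the median per peak went against the pooled value, with a difference of -0.22. On chromosome 8 the strong peaks of the low-coordinate end lay 0.12 above those of the interior (0.065 to 0.18), with 7668 and 6965 reads in 42 peaks. Below 200 reads the pooled difference of ends minus interior was -0.10 (-0.11 to -0.091), so it was about as large without the strong peaks.

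The end peaks furthest from an equal level were ranked among the 3596 with at least 50 reads by the interval bound nearest to 0, and their ratios describe that choice. The lowest, at bases 4982374 to 4982773 of chromosome 6, was 4.98 Mb from the outermost peak and so just inside the limit. With 403 unsorted and 153 sorted reads (-1.36) it was also the strongest peak of its end, and its 15 neighbours within 50 kb were low as well, with 1074 and 839 reads (-0.33). Bases 2121000 to 2121399 of chromosome 4 counted 89 and 27 (-1.67). The 17 neighbours, with 280 and 321 reads (0.23), did not share the difference. Near the other end of that chromosome, bases 129360646 to 129361045 counted 43 and 11 (-1.89, -3.04 to -0.96), next to 19 level neighbours (0.0018). Of the remaining 5, 2 lay on chromosome 2, at 1088534 to 1088933 with 145 and 55 reads and at 3405379 to 3405778 with 56 and 21. The other 3 had log2 ratios of -1.12 (chromosome 4, start 3645657), -1.59 (chromosome 8, start 114075136) and -1.11 (chromosome 1, start 193571691).

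The highest end peak, at bases 191629679 to 191630078 of chromosome 1, lay 3.26 Mb from the outermost peak and counted 70 unsorted against 175 sorted reads (1.35). Its 13 neighbours had 230 and 219 reads, at -0.040, and did not share the difference. Bases 2532484 to 2532883 of chromosome 2 counted 34 and 81 (1.27, 0.69 to 1.91), and the 15 neighbours stood at 0.020. Bases 1815676 to 1816075 of chromosome 3 counted 14 and 38 (1.44, 0.55 to 2.47), while the 12 neighbours were low at -0.34. Nearest to a chromosome tip among the 8 were bases 210024 to 210423 of chromosome 8, where 24 and 55 reads lay (1.21, 0.51 to 1.98). The other 4 had log2 ratios of 1.14 (chromosome 8, start 116978111), 1.36 (chromosome 6, start 1742483), 1.27 (chromosome 2, start 4390375) and 1.40 (chromosome 4, start 4148314). Of the 8 highest peaks 6 lay at low-coordinate ends, and of the 8 lowest 5 did, beside 1851 of all 3596 ranked peaks. With so few peaks, no preference for either side is read from these counts.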

How the data were processed

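The deposited table gave unnormalized read counts for 1 merged peak set in 1 column per library. The submitters' processing notes list MACS2, featureCounts, Bowtie, Bowtie2, SAMtools and Trim Galore, without version, role or order. No source used here gives the genome build, the handling of duplicates or that of reads mapping to several places, which could change counts in repeats. The gene table at hand (UCB_Xtro_10.0) reached base 217419418 of chromosome 1 and the peaks 194891458, so no gene was assigned and no sequence is shown. The 548 peaks without a position could not be placed and stayed in the library totals.

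Libraries were scaled by total reads in peaks. Single-peak log2 ratios used a prior count of 0.5. Intervals are Clopper-Pearson, and those of differences of pooled log2 ratios are normal intervals on the log scale from the 4 read sums. Both cover counting error only, and without molecular identifiers reads may be copies of a molecule. A count of 0 allows up to 3 reads, or 0.944 CPM (unsorted) and 0.964 CPM (sorted). Density used window lengths between outermost peaks. The loess span was 0.3. The call rule and the pooled difference were checked on counts simulated with counting error alone. Such a check covers the computation and cannot show how either behaves with spread between preparations.

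Members, lists and tests were chosen with earlier results of these data known. Peaks were named by rule: the most covered of each end, the 8 highest and 8 lowest end peaks with at least 50 reads, the densest and sparsest 1 Mb window and the peaks at each 5 Mb limit. The lowest and highest windows by ratio, the windows named on chromosomes 2, 4, 5 and 6, the classes of neighbours, and the values without the most covered interior peaks or with another scale for peaks of 200 reads were chosen after their values were seen. Computation used Python 3.11.15, NumPy 2.4.6, pandas 2.3.3, SciPy 1.17.1, statsmodels 0.14.6, and R 4.3.3 with edgeR 4.0.16 and DESeq2 1.42.0 for scaling factors only.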

Additional observations from a re-analysis of the deposited data

How the results depend on the processing

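Ends kept a higher density, coverage and read density and a lower ratio than the interior under every alternative run. The pooled difference of ends minus interior was -0.090 with 2 Mb ends, -0.12 without the most covered peak of each end and interior, -0.094 at matched coverage, -0.088 after the loess correction, and, in comparisons added after seeing the data, -0.044 at matched crowding and -0.12 against the interior beyond 10 Mb. The difference of medians was -0.085 with 2 Mb ends, -0.10 with 10 Mb ends, -0.079 at matched coverage, -0.097 after loess, -0.092 with no minimum, -0.085 and -0.098 at minimums of 50 and 100 reads, -0.074 with a prior count of 5, and -0.11 as a difference of means (added later). Density folds were 2.31 and 1.96 with 2 and 10 Mb ends, 2.38 for peaks with 20 reads and 5.52 for those with 50, which follows from the higher coverage of end peaks. Reads per Mb were 3.34-fold and 2.93-fold with 2 and 10 Mb ends. The log2 share ratio of end peaks was -0.095 (TMM factors), -0.058 (DESeq2 size factors), 0.13 and so above 0 (the 5000 most covered peaks as the scale), -0.011 with 10 Mb ends and -0.0065 without peaks of 400 or more reads. The low-minus-high difference was 0.00049 (above 0) with 2 Mb ends and -0.055 with 10 Mb ends.

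Leaving out each chromosome in turn, the pooled difference lay between -0.12 and -0.098, the difference of medians between -0.10 and -0.085, the density fold between 2.08 and 2.14, the coverage fold between 1.37 and 1.44, the read density fold between 2.98 and 3.17, the share ratio between -0.034 and -0.020 and the low-minus-high difference between -0.029 and -0.0024. The last was nearest to 0 without chromosome 3.

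The number of differing end peaks was 91 (47 higher, 44 lower) at 50 reads, 9 (3 and 6) at 100, 703 (350 and 353) at 1.5-fold, 73 (46 and 27) at 3-fold, 174 (106 and 68) with 99% intervals and 201 (123 and 78) with a prior count of 5. These counts were made with stricter or looser rules. With the 5000 most covered peaks as the scale, 411 were higher and 80 lower. At 50 and 100 reads, 2.53% and 0.937% of the end peaks passed, beside 2.42% and 0.829% of all such peaks of the table. For 1.5-fold, 3-fold, 99% intervals, a prior count of 5 and the other scale, the share of all peaks was not computed. Whether the ends differ from the whole table under those settings was therefore not tested. No cause of the differences between settings was tested. No paired analysis was possible because there was 1 library in each group. Depth is a limit for single peaks, since the median end peak had 38 summed reads.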
